A study of Mus musculus with 15 samples.

Results

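A set of 10 autophagy genes was followed by RNA-seq in mouse zygotes and 2-cell embryos with and without maternal Usp16, a deubiquitinase of histone H2A. They were chosen by name, though with earlier results of these data known. The genes are Ulk1, Becn1, Atg3, Atg5, Atg7, Atg12, Map1lc3b, Gabarap, Sqstm1 and Lamp1. All 10 were found among the 14392 genes of the deposited table. Values were from 8 RNA-seq libraries in 4 groups of 2, each library made from 10 embryos by Smart-seq2, a full-length cDNA method for very small samples. WT zygotes and WT 2-cell embryos had wild-type mothers (Usp16 +/+). The cKO zygotes and cKO 2-cell embryos had Usp16 fl/fl;Gdf9-Cre mothers, in which Cre is driven by the oocyte-specific Gdf9 promoter, and carried a maternal null and a paternal wild-type Usp16 allele. All mice had a C57BL/6 background, the superovulated mothers were 21 to 23 days old, the fathers were 10 to 12-week-old WT males, and zygotes were taken 28 h after hCG and embryos were kept in KSOM medium. The collection time of the 2-cell embryos was not given in the sources used here. Each library pooled embryos, so the spread between embryos was not measured, and no source says whether the 2 libraries of a group came from different mothers, so every p-value below measures only the spread between libraries.

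Macroautophagy encloses cytoplasm in a double membrane, the autophagosome, and delivers it to the lysosome. The ULK kinase complex starts the process, and the class III PI3K complex built around Beclin 1 marks the site with a phosphoinositide. Ubiquitin-like conjugation reactions then attach Atg8 family proteins, LC3 and the GABARAPs, to the growing membrane, where cargo receptors such as p62 bind them. Autophagy in the fertilized mouse egg is known for breaking down maternal proteins before the embryonic genome takes over. In mice, the main activation of the zygotic genome takes place at the 2-cell stage.

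The promoters of 4 genes on which the results turn are shown first. Atg3 and Map1lc3b rose in cKO 2-cell embryos, Gabarap rose with Map1lc3b between the WT stages but differed little by genotype, and Lamp1 is a lysosomal marker gene that was not called in any of the comparisons as reported below. The letters are from RefSeq on build GRCm38.p6, 250 bases before to 50 bases after the annotated start, written 5′ to 3′ on the strand of the gene, and capitals mark each CACGTG, the core E-box to which the MiT/TFE factors that drive lysosomal genes are known to bind.
Atg3 (chr16:45158579-45158878, plus strand): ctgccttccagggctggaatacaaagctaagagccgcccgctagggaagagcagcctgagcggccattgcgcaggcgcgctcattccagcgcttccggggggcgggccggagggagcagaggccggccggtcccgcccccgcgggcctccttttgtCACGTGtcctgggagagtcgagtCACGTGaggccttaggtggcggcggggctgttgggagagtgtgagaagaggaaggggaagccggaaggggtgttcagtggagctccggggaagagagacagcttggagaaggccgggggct
Map1lc3b (chr8:121590188-121590487, plus strand): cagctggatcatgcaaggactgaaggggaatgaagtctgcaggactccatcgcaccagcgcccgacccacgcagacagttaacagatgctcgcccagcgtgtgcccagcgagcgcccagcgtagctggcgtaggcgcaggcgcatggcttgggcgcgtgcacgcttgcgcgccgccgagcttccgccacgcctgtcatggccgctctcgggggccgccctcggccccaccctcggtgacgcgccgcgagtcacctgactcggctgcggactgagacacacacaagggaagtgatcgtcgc
Gabarap (chr11:69991120-69991419, plus strand): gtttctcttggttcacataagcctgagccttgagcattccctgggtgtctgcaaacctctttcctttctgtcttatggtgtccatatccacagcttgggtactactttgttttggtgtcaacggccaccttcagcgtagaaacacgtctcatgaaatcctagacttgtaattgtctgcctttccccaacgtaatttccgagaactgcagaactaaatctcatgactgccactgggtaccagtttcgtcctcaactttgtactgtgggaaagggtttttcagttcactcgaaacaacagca
Lamp1 (chr8:13158911-13159210, plus strand): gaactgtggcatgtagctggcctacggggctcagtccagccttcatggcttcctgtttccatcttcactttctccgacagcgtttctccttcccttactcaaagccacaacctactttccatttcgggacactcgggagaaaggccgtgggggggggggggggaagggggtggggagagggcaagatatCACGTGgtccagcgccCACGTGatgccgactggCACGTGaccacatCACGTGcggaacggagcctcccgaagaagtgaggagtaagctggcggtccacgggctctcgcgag

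CACGTG reads the same on both strands, so each occurrence was counted once. The Atg3 promoter held 2, beginning 94 and 71 bases before the start, and the Lamp1 promoter held 4, beginning 61, 45, 28 and 15 bases before it. Of 32851 RefSeq mouse promoters of the same length, 7.15% held at least 1 CACGTG, 0.594% at least 2 and 0.0244% at least 4. Promoters of 8 of the 10 genes were matched. Those of Atg5 and Atg7 held 1 each, and those of Map1lc3b, Gabarap, Sqstm1 and Ulk1 held none in this window. Only 1 annotated start was used per gene, and whether it is the main or the most upstream one was not checked. A window may therefore lie partly or wholly inside its gene. The counts describe these windows only, and a window with none does not show that the gene has no CACGTG near another start. The letters alone do not show whether any factor was bound. Of the 8 genes, Atg3 and Lamp1 were the 2 with more than 1 CACGTG. Between the genotypes at the 2-cell stage, Atg3 had the largest rise of the 10 genes and Lamp1 nearly no difference. Whether the motif bears on either value was not tested.

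Usp16 itself was examined in every library as a check of the labels. Its FPKM, a count of sequenced fragments scaled to the length of the gene and the size of the library, was 184 and 187 in WT zygotes but 16.8 and 22.0 in cKO zygotes. At the 2-cell stage it was 168 and 183 in WT embryos and 168 and 84.8 in cKO embryos, in which the paternal allele is intact. The zygotes therefore matched their labels, and at the 2-cell stage the transcript no longer told the genotypes clearly apart.

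Values summed to between 547752 and 593317 FPKM in 7 libraries and to 770989 in cKO 2-cell replicate 2. The cKO 2-cell libraries also agreed least with each other, with a Spearman correlation across genes of 0.886 against 0.963 to 0.984 in the other groups, and 1912 genes differed more than 3-fold between them against 20 to 199 elsewhere. All 12 oocyte and maternal markers were in the table, and their summed FPKM was 15788 to 18150 in zygotes and 5249 to 10108 in 2-cell embryos. Of 8 listed 2-cell activation genes 5 were in the table, and their sum was 6.45 to 9.48 in zygotes, 541 to 771 in WT 2-cell embryos and 291 to 357 in cKO 2-cell embryos. Of the markers of other cells, 4 of 11 cumulus and granulosa genes summed to at most 30.8, 4 of 6 sperm and testis genes to at most 23.1, and 2 of 4 blood genes to at most 20.3, with Foxl2, Prm1, Odf1 and Hba-a1 at the floor in at least 6 libraries. The 3 of 5 oviduct epithelium genes were at the floor in every zygote library and summed to 48.7 to 116 in 2-cell embryos, nearly all of it Epcam, at 44.4 to 114. The part of these differences in the results below was not tested.

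In WT zygotes the mean level of the 10 genes ran from 2.44 to 266 FPKM. Atg5, whose product is joined to ATG12 in the first conjugation reaction, was the highest at 252 and 279 FPKM and lay above 97.5% of all genes. Atg12, the ubiquitin-like partner of ATG5, followed at 83.6 and 74.8, and Map1lc3b, which encodes LC3B, at 63.3 and 41.0. Becn1, the Beclin 1 gene, stood at 39.1 and 39.4 and overlapped Lamp1 at 39.5 and 31.1. Below them were Atg3, which encodes the E2-like enzyme that couples Atg8 proteins to lipid, at 28.8 and 29.5, the p62 gene Sqstm1 at 11.6 and 8.38, Gabarap at 7.36 and 6.86, and the kinase gene Ulk1 at 6.24 and 4.85. Atg7, which encodes the E1-like enzyme of both conjugation reactions, was the lowest at 3.15 and 1.73. All neighbours in this order except Becn1 and Lamp1 had libraries that did not overlap. The order was the same in cKO zygotes except that Lamp1 lay above Becn1 there.

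**Figure D1:**
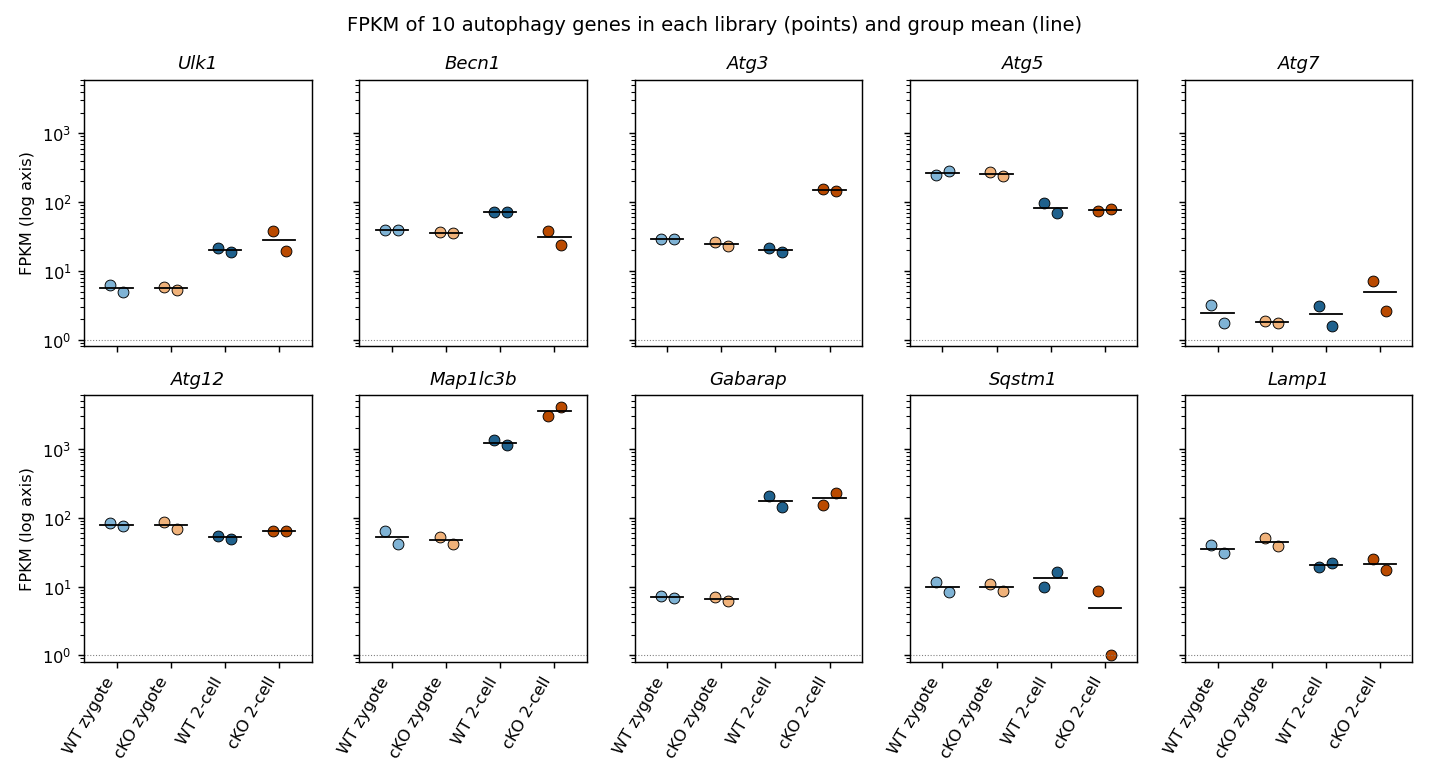
FPKM on a log axis (vertical) of 10 autophagy genes in the 4 groups (horizontal), with 1 point per library, 2 libraries per group, a line at the group mean and a dotted line at the floor of 1 FPKM. The 2 cKO 2-cell libraries of Atg3 lie at 155 and 144, above all its other libraries, and Map1lc3b reaches 3014 and 4025.

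Between the WT zygote and the WT 2-cell embryo, 4 of the 10 genes rose and 2 fell. Map1lc3b and Gabarap, both of the Atg8 family, rose most, followed by Ulk1 and Becn1, while Atg5 and Atg12, which form a single conjugate, fell. The test was limma on log2(FPKM + 1) with Benjamini-Hochberg adjustment over all genes and a threshold of 0.05, a scale on which the change of low genes is understated. Of all 14392 genes, 34.2% were called higher and 15.5% lower in this comparison, so the share of these 10 genes that was called was near the background. Without WT zygote replicate 2 the 6 calls were 3 (Atg5, Map1lc3b and Gabarap), and 4 to 8 without any other library. The median difference of the 10 was 0.14 on the log2 scale, against 0.27 over all genes.

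Map1lc3b was at 1344 and 1126 FPKM in WT 2-cell embryos, against 63.3 and 41.0 in WT zygotes. This was a 23.7-fold rise of the mean, with a log2 difference of 4.57 (SE 0.30, adjusted p = 0.000148). Gabarap was at 204 and 141 in WT 2-cell embryos, 24.2-fold above WT zygotes (log2 difference 4.39, SE 0.28, adjusted p = 0.000144). The 2-cell libraries of both genes were far above every zygote library, and Map1lc3b became the gene of rank 40 by level. Its log2 difference exceeded that of 98.3% of all genes, and that of Gabarap 98.0%.

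Ulk1 rose 3.61-fold, to 21.4 and 18.6 FPKM (log2 difference 1.69, SE 0.34, adjusted p = 0.00731). Becn1 rose 1.85-fold, to 72.4 and 73.0 (log2 difference 0.87, SE 0.24, adjusted p = 0.0258). Neither gene overlapped between the stages. Ulk1 lost its call without WT zygote replicate 2 or WT 2-cell replicate 1. Becn1 lost it in 7 of 18 alternatives, namely scaling to equal sums and leaving out any 1 of the zygote or WT 2-cell libraries.

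Atg5 fell 3.21-fold, to 95.9 and 69.4 FPKM (log2 difference -1.69, SE 0.22, adjusted p = 0.00128). Atg12 was at 54.7 and 49.9, 1.51-fold below WT zygotes (log2 difference -0.59, SE 0.19, adjusted p = 0.0412), and lost its call in 9 of 18 alternatives. Atg3 was at 21.2 and 18.98, with a log2 difference of -0.52 (adjusted p = 0.0517), and Lamp1, which encodes a membrane glycoprotein of the lysosome, at 19.2 and 21.8, with -0.75 (adjusted p = 0.0627). The libraries of these last 2 genes did not overlap between the stages, but they did not pass the test. Atg3 was called in 6 of 18 alternatives and Lamp1 in 5, both among them after median-ratio scaling (-0.84, adjusted p = 0.00524, and -1.07, adjusted p = 0.00815). Atg7 was at 3.07 and 1.61 and Sqstm1 at 9.93 and 16.2, both overlapping the WT zygotes.

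By the rule the study states, a difference of more than 3-fold between means, 3 of the 10 rose (Map1lc3b, Gabarap and Ulk1) and 1 fell (Atg5), with 26.0% and 8.78% of all genes. Libraries lay fully above the zygotes for 4 genes and fully below for 4, against 49.4% and 26.4% of all genes.

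In zygotes the genotypes were close for the 10 genes. None of them was called by limma, with 0.0208% of all genes called higher and 0% lower. Usp16 itself was 9.58-fold lower in cKO zygotes, with a log2 difference of -3.21, yet limma did not call it (adjusted p = 0.191). The adjusted test could thus miss differences far larger than those of the 10 genes. With p left unadjusted, none of the 10 passed 0.05 either, while 324 genes of the table did so upward and 84 downward. The differences ranged from -0.27 (Atg7) to 0.33 (Lamp1) on the log2 scale, and the smallest unadjusted p was 0.235, for Atg3. Atg3 was at 26.7 and 22.8 FPKM in cKO zygotes, with a log2 difference of -0.23 and a 95% interval from -0.66 to 0.20. Map1lc3b was at 52.9 and 42.0, with an interval from -0.83 to 0.61, and Becn1 at 36.3 and 35.3, with an interval from -0.72 to 0.46. Intervals of the other genes were of like or greater width, so differences of about this size could not be seen with 2 libraries a group. Atg3 and Becn1 had both cKO libraries below both WT libraries and no gene the reverse, against 10.2% and 15.8% of all genes. No gene of the 10 passed the 3-fold rule, which 0.104% of all genes passed upward and 0.0486% downward.

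At the 2-cell stage, Atg3 and Map1lc3b were higher and Becn1 was lower in cKO than in WT embryos, and the other 7 genes did not pass the test. Of all genes, 6.16% were called higher and 24.6% lower. The median of the 10 genes was 0.22 on the log2 scale, against -0.30 over all genes. In pooled embryos, fewer cells with a transcript and less of it per cell cannot be told apart.

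Atg3 had the largest difference of the 10. It was at 21.2 and 18.98 FPKM in WT 2-cell embryos and at 155 and 144 in cKO 2-cell embryos. The 2 cKO libraries agreed within 1.08-fold and lay above every other library, those of zygotes included. The mean was 7.43-fold higher, with a log2 difference of 2.83 (SE 0.18, 95% interval 2.40 to 3.26, adjusted p = 0.000816), rank 16 of 14392 genes from the highest. Relative to the median of all genes the difference was 3.13. The call held in 17 of 18 alternatives. The exception was the fit to the 4 2-cell libraries alone, in which limma called 0 genes in the whole table (819 upward and 3416 downward with no adjustment of p) and gave Atg3 an adjusted p of 0.0598. A coding sequence search of mm9 found no second copy of Atg3, and its exons overlap no other annotated gene.

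The difference of Atg3 between genotypes also depended on the stage. The log2 difference at the 2-cell stage exceeded that in zygotes by 3.07 (SE 0.25, adjusted p = 0.00515), where 11.8% of all genes were called for such an interaction in either direction. Atg3 was the only gene of the 10 called in this test. In cKO embryos its mean was 6.04-fold higher at the 2-cell stage than in zygotes, while in WT embryos it was 1.45-fold lower. Without any 1 of the 4 zygote libraries, the difference was 2.96 to 3.18 but was not called. Those fits called hardly any gene of the whole table for an interaction.

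Map1lc3b was at 3014 and 4025 FPKM in cKO 2-cell embryos and at 1344 and 1126 in WT 2-cell embryos. Both cKO libraries exceeded both WT libraries, and the gene had rank 13 of the table by its cKO mean. It was 2.85-fold higher (log2 difference 1.50, SE 0.30, 95% interval 0.78 to 2.22, adjusted p = 0.0136), just under the 3-fold rule. The call was lost with 1 variance per group (adjusted p = 0.242), after quantile normalization (0.0909), in the 4 2-cell libraries alone (0.158) and without WT 2-cell replicate 1 (0.0538) or 2 (0.0798). The interaction with stage was 1.61 (SE 0.42, adjusted p = 0.0579).

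The level of Map1lc3b is uncertain, because its 378-base coding sequence has 8 further copies in mm9 that match at least 80% of it. Of these, 4 are at least 96% identical, namely Gm6055 on chromosome 14 (99.7%), Gm12727 on chromosome 4 (98.6%), Gm6054 on chromosome 5 (98.1%) and Gm5612 on chromosome 9 (96.6%). None is a row of the table, and reads of 50 bases could be shared among them. Gabarap had 1 such copy, at 88.8% identity, and the other 8 genes had none.

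Becn1 was at 38.2 and 23.9 FPKM in cKO 2-cell embryos and at 72.4 and 73.0 in WT 2-cell embryos. The WT libraries were nearly equal, and both cKO libraries lay below them and at or below the level of zygotes. The gene was 2.34-fold lower (log2 difference -1.24, SE 0.24, 95% interval -1.83 to -0.64, adjusted p = 0.0136), a fall of 0.94 relative to the median of all genes. The call was lost with 1 variance per group (adjusted p = 0.0689), in the 4 2-cell libraries alone (0.114) and without WT 2-cell replicate 1 (0.0612) or 2 (0.0636). The rise of 1.85-fold seen between the WT stages was thus not seen in cKO embryos, where the ratio of means was 0.868, but the interaction did not pass the test (-1.11, SE 0.34, adjusted p = 0.0881). Of the exon bases of Becn1, 43.9% overlap Cntd1 on the opposite strand, and strand was not kept; Cntd1 was at 1 to 1.80 FPKM in every library.

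Sqstm1 had the most negative value of the 10 but did not pass the test. It was at 9.93 and 16.2 FPKM in WT 2-cell embryos, 8.69 in cKO 2-cell replicate 1 and at the floor of 1 in replicate 2. The log2 difference of -1.64 (SE 0.72, adjusted p = 0.137) was -0.50 without cKO 2-cell replicate 2 and -2.78 without replicate 1, where it passed the test (adjusted p = 0.00783). The value thus rested on cKO 2-cell replicate 2. Its exons overlap 3010026O09Rik on the opposite strand over 17.3% of their length, a gene at 16.6 to 64.4 FPKM.

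The remaining members of the conjugation machinery differed less. Atg7 was at 7.12 and 2.61 FPKM in cKO 2-cell embryos (log2 difference 0.73, 95% interval -0.33 to 1.80), its replicates lying 2.72-fold apart. Atg12 was at 63.1 and 64.3, both above the WT libraries (log2 difference 0.28, 95% interval -0.18 to 0.74, adjusted p = 0.299). Atg5 was at 74.6 and 78.5, within the range of the WT libraries (log2 difference -0.09, 95% interval -0.62 to 0.43). The upper ends of the intervals of all 3 genes lay below the lower end of that of Atg3, 2.40.

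Ulk1 was at 37.5 and 19.3 FPKM in cKO 2-cell embryos, with WT libraries at 21.4 and 18.6 (log2 difference 0.42, 95% interval -0.40 to 1.24). It was 0.88 and called (adjusted p = 0.0310) without cKO 2-cell replicate 2, and -0.04 without replicate 1. Gabarap was at 153 and 231 against 204 and 141 (0.15, 95% interval -0.53 to 0.83), and Lamp1 at 25.4 and 17.4 against 19.2 and 21.8 (0.04, 95% interval -0.63 to 0.70). Their cKO and WT libraries overlapped, and the sign of Gabarap, Lamp1 and Atg5 depended on the scaling. Libraries did not overlap in 5 of the 10 genes, with 3 higher in cKO (Atg3, Map1lc3b and Atg12) and 2 lower (Becn1 and Sqstm1), against 14.0% and 43.4% of all genes. The 3-fold rule was passed upward by Atg3 alone and downward by none, with 2.84% and 13.5% of all genes. Without WT 2-cell replicate 1 or without cKO 2-cell replicate 1, 4 genes passed it, among them Atg3, Map1lc3b and Sqstm1 both times, and 2 without cKO 2-cell replicate 2 (Atg3 and Atg7).

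**Figure D2:**
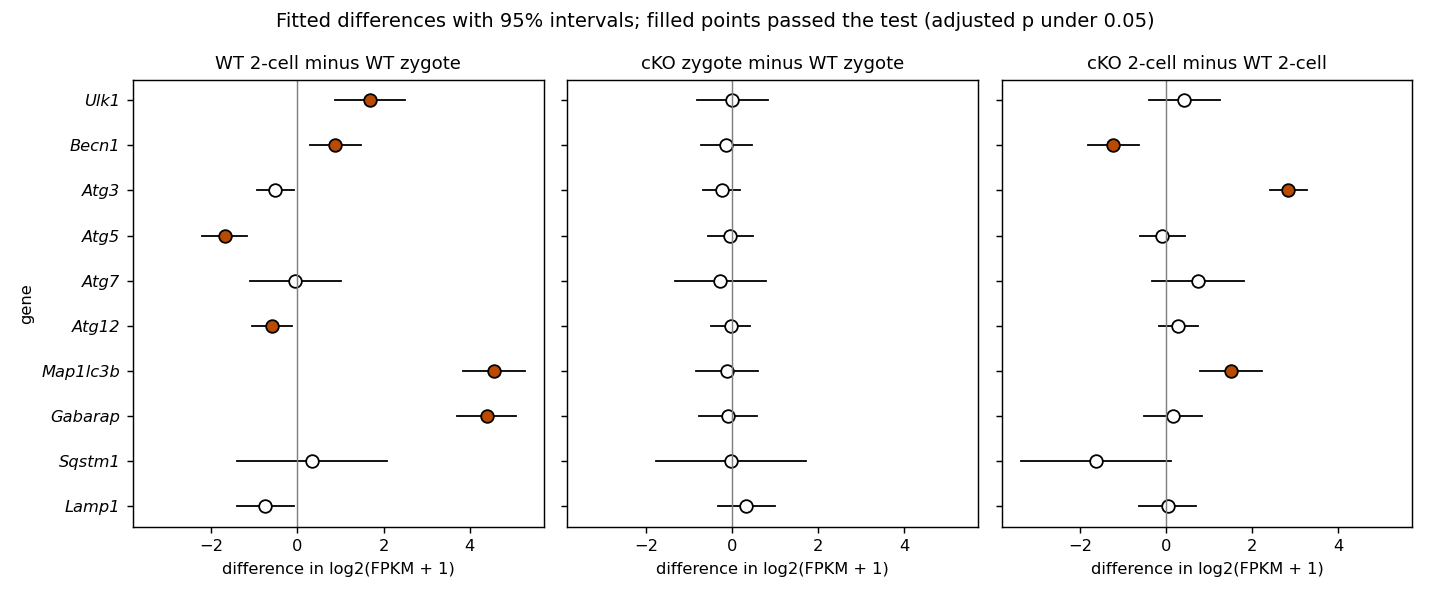
Difference in log2(FPKM + 1) (horizontal) for each of the 10 genes (vertical) in the 3 comparisons, with 95% intervals from limma and filled points where the adjusted p was under 0.05. All 10 intervals include 0 in zygotes, while Atg3 reaches 2.83 at the 2-cell stage and Map1lc3b and Gabarap 4.57 and 4.39 between the WT stages.

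The order of levels accordingly changed between groups. In WT 2-cell embryos it ran from Map1lc3b and Gabarap through Atg5 and Becn1, which overlapped, to Atg12, then Lamp1, Atg3 and Ulk1, which overlapped, and last Sqstm1 and Atg7. In cKO 2-cell embryos Atg3 overlapped Gabarap and lay above Atg5, whereas Becn1 lay below Atg12 and overlapped Ulk1.

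A wider list of 90 autophagy genes in 10 roles, the 10 included, was used to place these values, and 85 were in the table. Between the WT stages 33 rose and 15 fell, which is 38.8% and 17.6% of the 85, near the 34.2% and 15.5% of all genes. Without WT zygote replicate 1 the number that fell was 9. Of the 5 ULK complex genes 4 rose (Ulk1, Ulk2, Atg13 and Rb1cc1) and 0 fell. At an unadjusted p under 0.05 all 5 rose and 0 fell. Of the 14 lysosomal genes 8 rose and 1 fell (Npc1). Of the 8 class III PI3K genes 1 rose, namely Becn1, and 4 fell (Rubcn, Pik3c3, Pik3r4 and Ambra1). All 5 Atg8 family genes rose, although Gabarapl1 did so between the floor of 1 and a mean of 1.60 FPKM. Among the largest rises outside the 10 were those of Ctsl, which encodes the protease cathepsin L, from 2.40 and 1 to 218 and 404 FPKM, and of the tetraspanin gene Cd63 from 1.46 and 1 to 234 and 223. Wipi2 and Wdr45, which encode phosphoinositide-binding WIPI proteins, had 34.5-fold and 39.8-fold rises. Cd63 and Ncoa4 each have a copy of the coding sequence in mm9 that is at least 96% identical. The largest falls were those of Rubcn, an inhibitor of the Beclin 1 complex listed as 1700021K19Rik (7.23-fold lower), the receptor genes Calcoco1 (8.31-fold), Optn (4.93-fold) and Ncoa4 (3.54-fold), and the SNARE gene Stx17 (4.61-fold). These 4 rises and 5 falls outside the 10 genes were called in each of 18 alternatives.

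In zygotes limma called 0 of the 85 genes in either direction, also at an unadjusted p under 0.05. In 2-cell embryos 9 were higher, 8 were lower and 68 were not called, and without the 10 genes it was 7 higher and 7 lower of 75. Each 7 is 9.33% of 75, beside 6.16% of all genes higher and 24.6% lower, and the median log2 difference of the 85 was -0.06. The 9 higher genes became 17 without cKO 2-cell replicate 2 and 3 without WT 2-cell replicate 2, but 5 or 6 without WT 2-cell replicate 1 or any zygote library, and the 8 lower genes became 18 without cKO 2-cell replicate 1 and 4 or 5 without any WT 2-cell or zygote library. By limma, 0 of 5 ULK complex genes and 0 of 5 fusion genes passed, also at an unadjusted p under 0.05, and 0 of 14 lysosomal genes, of which 1 was lower at an unadjusted p under 0.05.

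In the Atg8 family, Gabarapl2 rose with Map1lc3b. It was at 456 and 434 FPKM in WT and 1551 and 2179 in cKO 2-cell embryos, 4.19-fold higher (log2 difference 2.04, SE 0.22, adjusted p = 0.00253), and was called in 17 of 18 alternatives. Map1lc3a was at 183 and 150 in WT and 383 and 242 in cKO embryos and was not called. Gabarapl1 was called lower, from 1.58 and 1.61 to the floor in both cKO libraries. The summed FPKM of the 5 genes was 2188 and 1853 in WT and 5103 and 6678 in cKO 2-cell embryos, and Map1lc3b made up 59.1% to 61.4% of it in all 4. Like Map1lc3b, Gabarapl2 is uncertain, with 7 copies of its coding sequence of which 3 are at least 96% identical.

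Among the partners of the 10 genes, several moved in opposite directions. Pik3c3, the lipid kinase bound by Beclin 1, was higher in cKO 2-cell embryos, at 11.2 and 8.02 FPKM against 3.89 and 2.15 (3.19-fold, adjusted p = 0.0171), whereas Uvrag, a Beclin 1 partner, was lower, at 5.94 and 4.13 against 15.3 and 16.5 (3.16-fold, adjusted p = 0.00587). Atg4a, a protease that trims Atg8 proteins before ATG7 and ATG3 act on them, was lower, at 2.14 and 1.66 against 7.28 and 8.64 (4.19-fold, adjusted p = 0.00453). It too has a copy of its coding sequence, at 99.4% identity. Wdr45b, listed as Wdr45l and coding for a WIPI protein, was higher, at 166 and 202 against 43.7 and 38.3 (4.49-fold, adjusted p = 0.00237). Its coding sequence has 1 further copy, Gm6305 on chromosome 16, at 93.9% identity. The mitophagy receptor gene Bnip3 was also higher, at 421 and 730 against 178 and 115 (3.92-fold, adjusted p = 0.00947), with 4 copies in the genome. Rheb, the GTPase that activates mTORC1, was higher at 281 and 158 against 95.5 and 86.4 (2.41-fold, adjusted p = 0.0483).

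Of the 6 transcriptional regulators limma called 0 higher, also at an unadjusted p under 0.05, and 3 lower. Over all genes the shares were 6.16% and 24.6%, so that 0 of 6 higher is near the background. The 3 lower are 50% of a list of only 6. The 3 not called, Tfeb, Mitf and Zkscan3, were at 1 to 3.15 FPKM in the 2-cell libraries, so a fall in them could hardly be seen. Tfe3, a MiT/TFE factor, was at 9.13 and 5.03 FPKM in cKO against 19.9 and 15.9 in WT 2-cell embryos (2.53-fold, adjusted p = 0.0271), and Foxo3 was at 2.32 and the floor of 1 against 4.98 and 7.78 (adjusted p = 0.0277). The third lower gene was Foxo1, at 19.5 and 11.5 against 27.2 and 36.1 (2.04-fold, adjusted p = 0.0386). How many of the alternatives kept the call of Foxo1 is not given here. Stk11, the LKB1 kinase gene upstream of AMPK, was at 30.3 and 13.5 against 62.1 and 48.7 (2.53-fold, adjusted p = 0.0429). Rheb and Stk11 kept their calls in 5 of 18 alternatives, Tfe3 in 7 and Foxo3 in 9, against 15 for Bnip3 and Pik3c3, 16 for Uvrag and 17 for Wdr45b and Atg4a.

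**Figure D3:**
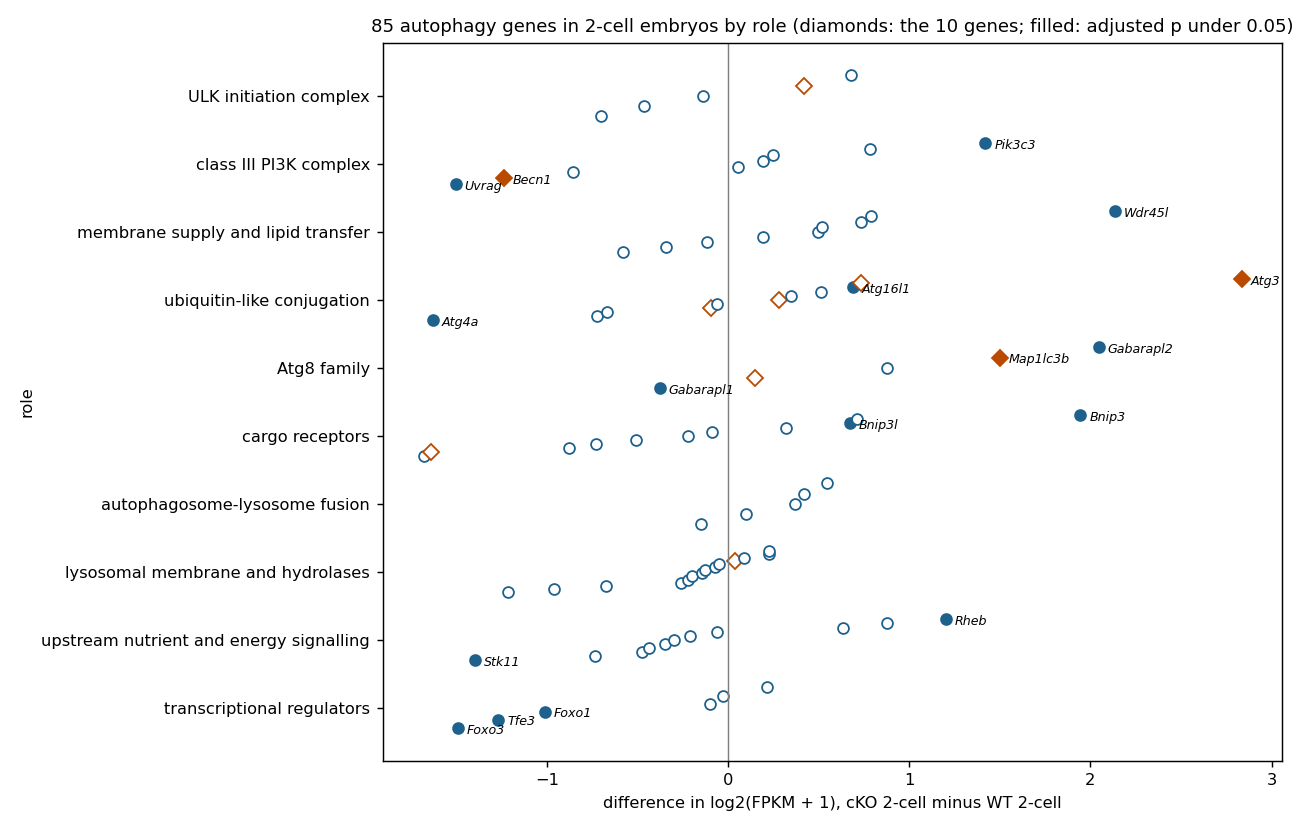
Difference in log2(FPKM + 1) between cKO and WT 2-cell embryos (horizontal) for 85 autophagy genes by role (vertical), with diamonds for the 10 genes, circles for the other 75 and filled symbols where the adjusted p was under 0.05. The 9 filled symbols on the right are led by Atg3 at 2.83, Wdr45l at 2.14 and Gabarapl2 at 2.04, and none of the 14 lysosomal genes is filled.

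The 2-cell values rested on how the spread was modelled, since the cKO 2-cell libraries varied most. With 1 variance per group, 120 genes of the table were called higher and 854 lower, against 887 and 3538 with a common variance, and Atg3 was the only one of the 10 still called. Without WT 2-cell replicate 1 or 2 it was again Atg3 alone, and without cKO 2-cell replicate 1 or 2 the number called was 4. With 2 libraries against 2, an exact permutation test cannot give a p below 0.333.

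**Figure D4:**
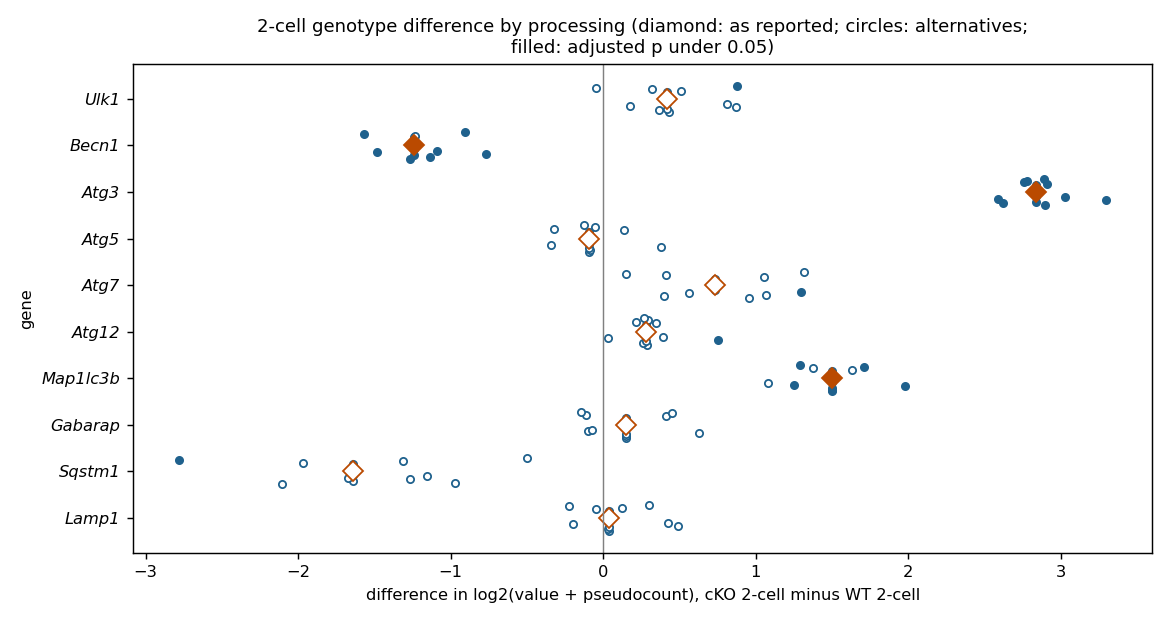
Difference in log2(value + pseudocount) between cKO and WT 2-cell embryos (horizontal) for each of the 10 genes (vertical) as reported (diamonds) and under 18 alternatives (circles), filled where the adjusted p was under 0.05. Atg3 stays between 2.59 and 3.30 and Sqstm1 spreads from -2.78 to -0.50.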

How the data were processed

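RNA-seq of 8 libraries (4 groups of 2, each of 10 embryos) was used. The 7 H2AK119ub1 ChIP-seq samples of the series were not analysed here. Per the labels and the study's methods, the authors trimmed reads of 150 bp to 50 bp, mapped them to mm9 with TopHat2 2.1.1 and deposited FPKM per gene from Cufflinks 2.2.1. They call the FPKM normalized, but the normalization and the gene annotation are not given in the sources used here. Genes under 1 FPKM in every library were removed and lower values set to 1, and the table holds 0 values under 1. FPKM keeps no counts, so the depth is unknown, intervals for counting error cannot be given, and precision rests on 2 libraries a group.

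All 14392 genes were fitted in limma 3.58.1 (R 4.3.3) after a log2 transform of FPKM plus 1, with an intensity trend for the prior variance and 4 group means in 1 model (4 residual and 2.14 prior degrees of freedom) and Benjamini-Hochberg adjustment. Intervals are limma's 95% intervals. The 3-fold rule compares means of 2 libraries and has no p. Values are means of 2 libraries where folds are given, and libraries are printed in the order of their replicate numbers.

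Members, lists and roles were chosen with earlier results of these data known, by name. Named genes were the 10, Usp16, and of the wider list the 5 called higher and the 5 called lower with the largest change and libraries that do not overlap, between the WT stages and between the 2-cell genotypes; 1 gene so selected is not reported here. Foxo1, Npc1, Ulk2, Atg13, Rb1cc1, Pik3r4, Ambra1, Map1lc3a, Gabarapl1 and Epcam were named after their values were seen. 3 genes listed under older symbols (1700021K19Rik, Wdr45l and 9430023L20Rik) were paired through RefSeq synonyms. Copies were searched with BLAST+ 2.17.0 on the mm9 genome at 85% identity or more, with GENCODE M1 coding sequences, and overlaps taken from GENCODE M1 exons. Python 3.11.15, numpy 2.4.6, pandas 2.3.3 and matplotlib 3.10.9 were also used.

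The labels number the replicates of each group 1 and 2, and no source says that a number marks a shared litter or day. Deviations of same-numbered libraries correlated at 0.497 in zygotes and -0.239 at the 2-cell stage. Alternatives were the pseudocount, a filter on low values, the scaling, the libraries and variances in the fit, the replicate block and leaving out each library.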

Additional observations from a re-analysis of the deposited data

Results flagged for a closer look

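Atg3 was picked out because its genotype difference differed between the stages in the test of that difference itself. The log2 difference was -0.23 in zygotes and 2.83 in 2-cell embryos, which gives an interaction of 3.07 (SE 0.25, adjusted p = 0.00515 by limma). Over 17 alternatives the interaction ranged from 2.82 to 3.56, with adjusted p from 0.00137 to 0.0606, and it was called in 13. The 4 that lost it each leave out 1 of the zygote libraries, and they called hardly any gene of the whole table for an interaction. Both cKO 2-cell libraries were above both WT 2-cell libraries, and both cKO zygote libraries were below both WT zygote libraries. The WT and cKO zygote values were 28.8, 29.5, 26.7 and 22.8 FPKM, and the 2-cell values 21.2, 18.98, 155 and 144 FPKM.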

How the results depend on the processing

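Of the 10 genes, 6 changed between the WT stages (3 to 8 with 1 library left out), 0 by genotype in zygotes under all 18 alternatives, and 3 by genotype at the 2-cell stage (1 to 4 with 1 library left out, 0 with only the 4 libraries compared and 1 with 1 variance per group, in which the more variable cKO 2-cell libraries get their own spread). The interaction was called for 1 gene (0 to 4 with 1 library left out) and for 2 with a mean FPKM of at least 5, after sum scaling and under the crossed replicate block, Map1lc3b being the second each time. The 3-fold rule gave 1 gene at the 2-cell stage (1 to 4 with 1 library left out), 2 after median-ratio scaling, after quantile normalization and by the geometric mean, and 5 at a 2-fold threshold. The replicate block and the crossed one also gave 2, since both average log ratios and so take the geometric mean, and the pairing itself moved nothing. It takes no pseudocount, so removing that was not run. In the wider list, 15 genes lower between the WT stages became 26 after quantile normalization (9 to 19 with 1 library left out). The 9 higher at the 2-cell stage became 16 after median-ratio scaling, 0 with only the 4 libraries and 3 with 1 variance per group (3 to 17 with 1 library left out). The 8 lower became 3 after median-ratio scaling or quantile normalization, 0 with only the 4 libraries and 2 with 1 variance per group (4 to 18 with 1 library left out). The cause of these shifts was not tested.

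Scaling moved the median of all genes in the 2-cell comparison from -0.30 to 0 (median-ratio), 0.01 (quantile) and -0.43 (sum), and the calls from 887 higher and 3538 lower to 1437 and 1747, 1370 and 1464, and 552 and 4065. Between the WT stages the calls moved from 4921 higher and 2224 lower to 3623 and 2736 (median-ratio) and 3102 and 3935 (quantile). Among genes that were not called, the sign reversed for Sqstm1 between the WT stages after quantile normalization (-0.35) and, at the 2-cell stage, for Atg5 after median-ratio scaling (0.38), Gabarap after sum scaling (-0.10) and quantile normalization (-0.073), and Lamp1 after sum scaling (-0.20). With 1 library left out, values ranged from -0.37 to 0.27 for Atg7 between the WT stages, from -0.42 to 0.20 for Map1lc3b in zygotes, and at the 2-cell stage from -0.044 to 0.88 for Ulk1, -0.32 to 0.14 for Atg5, -0.15 to 0.45 for Gabarap and -0.23 to 0.30 for Lamp1. A group left with 1 library was assumed to vary like the others.

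The replicate block changed none of the counts called by limma among the 10 genes (6, 0, 3 and 1 for the interaction). The crossed pairing of the 2-cell libraries, chosen after seeing the data because their deviations correlated at -0.239, gave 6, 0, 3 and 2. Depth was unknown, so no limit of detection can be given beyond the floor of 1 FPKM.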
